A study of Mus musculus with 70 samples.

Results

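The interstitial collagens described here are 10 chains of the stromal matrix, Col1a1, Col1a2, Col3a1, Col5a1, Col5a2, Col6a1, Col6a2, Col6a3, Col8a1 and Col12a1. Members were the non-control probes whose gene name or transcript gave 1 of these symbols, and each gene had 1 probe in 1 spot, among 21154 gene symbols with a probe.

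Levels were read on 70 one-colour arrays of 65 RNA samples from RENCA, a renal carcinoma cell line of BALB/c mice that carried GFP in every group, passaged in female wild type BALB/c mice. The parental cells (P0, 2 samples) were compared with sub-lines taken after each passage P1 to P6 by 3 routes. Kidney primary tumour lines (KPT) were injected under the kidney capsule and recovered from the kidney tumour, with 5, 2, 2, 3, 5 and 5 samples at P1 to P6. Tail-to-lung lines (T-LM) were injected into the tail vein and recovered from the lung, with 5, 2, 3, 4, 6 and 4 samples. Kidney-to-lung lines (K-LM) were injected under the kidney capsule and recovered from lung metastases, with 1, 1, 5, 3, 4 and 3 samples. The labels name the tumour or the lung metastases as the source and describe homogenised samples, while the study's methods describe cells freed with collagenase and cultured until GFP-negative cells were no longer seen. Several mice were used per route and passage and nothing pairs a sample with a mouse, so p-values measure only the spread between these samples. Between 25.3% and 55.3% of all probes were well above background on an array.

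Interstitial collagens form the fibres and filaments between cells. Types I, III and V make the striated fibrils, with type I the main one, type III beside it in distensible tissue and type V as a starter of fibril growth; type VI chains join into beaded microfibrils, type VIII is a short-chain collagen of vessel walls, and type XII lies on the surface of fibrils. Fibroblasts and other mesenchymal cells are the usual source, their chains need hydroxylation, chaperones and peptide removal before they assemble, and TGF-beta is a well-known inducer. In a kidney or lung tumour much of this matrix is laid down by the stroma, although carcinoma cells with mesenchymal traits can make it too.

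The 250 bases before the transcript start are shown for 4 members, Col1a2 and Col3a1 because their levels moved together and Col6a1 and Col6a3 because they were the chains that rose on every route. They come from the RefSeq promoter table for GRCm38.p6, which has an entry for 7 of the 10 members, and are written on the gene's own strand. In GRCm38.p6 Col3a1, Col5a2 and Col6a3 lie on chromosome 1, Col6a1 and Col6a2 on chromosome 10, and the other 5 genes on chromosomes of their own. Capitals mark a CCAAT box, a GGGCGG box or a TATAAA box on either strand, none of which overlap here.
Col1a2 (chr6:4505368-4505617, plus strand): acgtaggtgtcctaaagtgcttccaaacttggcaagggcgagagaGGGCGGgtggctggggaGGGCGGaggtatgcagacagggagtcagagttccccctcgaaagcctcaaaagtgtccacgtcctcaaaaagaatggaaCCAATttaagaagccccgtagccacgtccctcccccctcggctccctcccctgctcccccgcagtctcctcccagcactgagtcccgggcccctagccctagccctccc
Col3a1 (chr1:45311288-45311537, plus strand): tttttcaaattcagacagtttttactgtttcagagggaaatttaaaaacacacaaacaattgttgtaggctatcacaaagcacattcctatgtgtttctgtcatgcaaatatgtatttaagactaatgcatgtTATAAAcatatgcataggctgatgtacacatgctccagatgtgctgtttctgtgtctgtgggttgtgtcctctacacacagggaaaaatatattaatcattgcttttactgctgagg
Col6a1 (chr10:76726045-76726294, minus strand): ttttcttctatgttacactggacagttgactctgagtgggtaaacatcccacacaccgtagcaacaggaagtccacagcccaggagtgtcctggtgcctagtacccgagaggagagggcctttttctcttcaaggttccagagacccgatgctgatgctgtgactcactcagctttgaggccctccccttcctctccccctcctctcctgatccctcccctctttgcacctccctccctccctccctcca
Col6a3 (chr1:90843972-90844221, minus strand): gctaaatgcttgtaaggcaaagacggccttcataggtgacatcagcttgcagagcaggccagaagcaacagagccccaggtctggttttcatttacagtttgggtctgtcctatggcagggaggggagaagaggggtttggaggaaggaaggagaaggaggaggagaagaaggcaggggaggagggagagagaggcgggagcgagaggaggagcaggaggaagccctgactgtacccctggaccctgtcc
The Col1a2 window held 1 CCAAT and 2 GGGCGG matches, the Col3a1 window 1 TATAAA match, and the Col6a1 and Col6a3 windows none of these. Of 32851 mouse promoter windows of the same length, 33.8% held CCAAT, 32.7% GGGCGG and 12.4% TATAAA on either strand. GC content was 62.0% for Col1a2, 35.2% for Col3a1, 56.0% for Col6a1 and 57.2% for Col6a3, against a median of 52.4% over all windows.

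A level is the log2 processed intensity of the probe minus the 75th percentile of the array over the 12219 probes that were well above background on all 70 arrays, so that 0 is as bright as that percentile. Levels of different genes are not compared, since each probe has its own brightness. Of the 65 RNA samples, Col12a1 was well above background in 65, Col1a2 and Col5a1 in 64, Col6a3 in 63, Col1a1 in 54, Col3a1 in 52, Col8a1 in 45, Col6a1 in 43, Col6a2 in 17 and Col5a2 in 12. Values of Col5a2 and Col6a2 are therefore mostly at background, and the Col1a1 spot of KPT P1 replicate 5 was flagged as an outlier and left out.

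The type I chains were low in the parental cells, high after the first passage in most samples, low again at P2 and P3, and higher in most samples from P4 onward. Col1a1, the alpha1 chain of type I collagen, stood at -7.56 and -8.01 in the 2 P0 samples. In the tail route its mean level was -0.24 ± 3.5 (SD, n = 5) at P1, -4.55 ± 0.48 (n = 2) at P2, -6.36 ± 2.7 (n = 3) at P3, -0.30 ± 0.92 (n = 4) at P4, -0.50 ± 1.9 (n = 6) at P5 and -0.46 ± 0.94 (n = 4) at P6. KPT ran from -1.44 ± 2.5 (SD, n = 4) at P1 to -8.27 ± 1.5 (n = 2) at P2 and -7.96 ± 0.86 (n = 2) at P3, then to -3.95 ± 3.9 (n = 3), -1.91 ± 3.4 (n = 5) and -3.64 ± 0.78 (n = 5) at P4 to P6. Spreads of 2 or more units within a group mean that P4 and P5 are not separated from P1 or P6 in KPT. K-LM had a mean of -6.30 ± 2.0 (SD, n = 5) at P3, -0.56 ± 2.9 (n = 3) at P4, -2.45 ± 0.84 (n = 4) at P5 and -1.57 ± 0.96 (n = 3) at P6, with 2.34 and -3.85 in the single samples of P1 and P2. Col1a2, the alpha2 chain, followed the same course, from -6.77 ± 0.11 (SD, n = 2) at P0 to 1.08 in T-LM P1 and 1.01 in T-LM P4, the highest means of groups with 2 or more samples, and 3.17 in the 1 sample of K-LM P1. In KPT P3 and P6 its means were -4.98 ± 0.23 (SD, n = 2) and -1.45 ± 0.70 (n = 5).

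**Figure D1:**
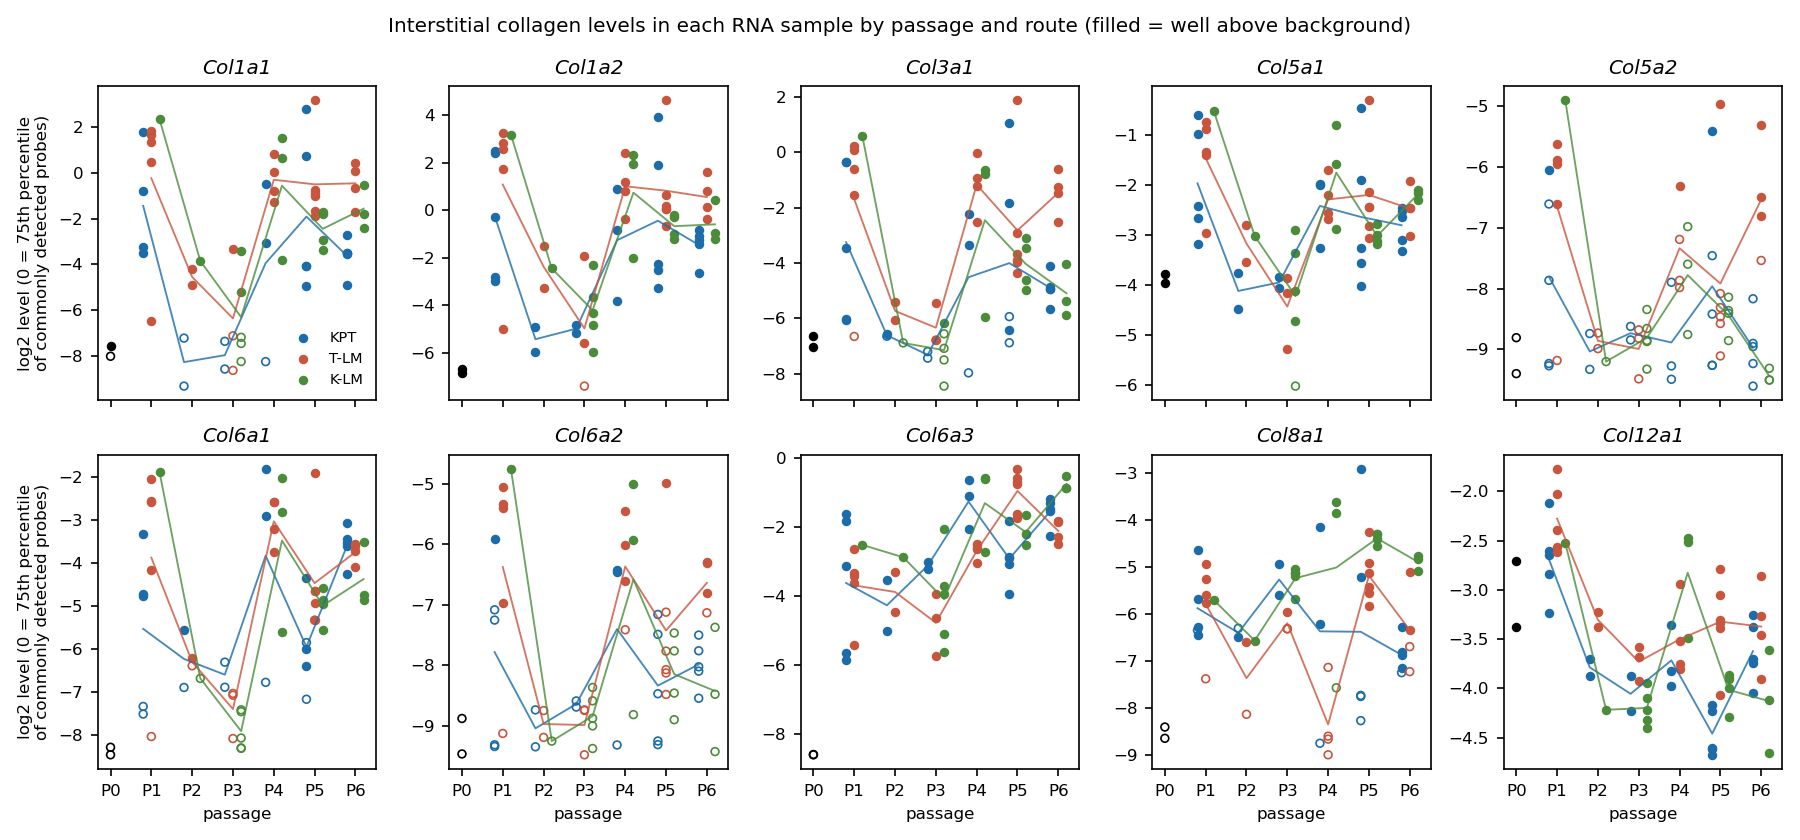
Level of each interstitial collagen (log2, 0 at the 75th percentile of the commonly detected probes, vertical axis, each panel with its own scale) in every RNA sample by passage (horizontal axis); filled points were well above background, open points were not, and lines join the group means. Col1a1 and Col1a2 sit low at P0, P2 and P3 and high at P1 and from P4, Col6a3 rises from -8.60 at P0, and Col12a1 stays between -4.68 and -1.77 throughout.

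Between P0 and P6, 5 members rose in T-LM, 5 in K-LM and 2 in KPT, and no member fell. The count was 5 of 10 members tested in T-LM against 5.89% of all probes that rose, 5 of 9 in K-LM against 4.12%, and 2 of 9 in KPT against 3.32%, at an adjusted p of 0.01 or less in limma. Of all probes, 1.36% fell in T-LM, 1.38% in K-LM and 0.481% in KPT. The counts depended on the arrays in the fit. With the P0 and P6 arrays alone 5 members rose in KPT (Col1a1, Col1a2, Col6a1, Col6a3 and Col8a1), against 7.06% of all probes in either direction, and the same 5 on the later slide alone, against 8.21%. T-LM then gave 7, against 11.2%, and K-LM 6, against 15.4%, with the KPT P6 arrays kept for the slide term. On the later slide alone K-LM also gave 6, against 14.5%. The 3 comparisons share the P0 samples. The median change of the members tested was 3.17 in T-LM, 3.69 in K-LM and 2.04 in KPT on the log2 scale, beside 0.01, 0.01 and -0.02 over all probes tested. Col5a2 did not pass the filter on dim probes in KPT and K-LM. These are bulk RNA samples, in which more cells of a type and more RNA per cell cannot be told apart.

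Among the fibril chains, Col1a1 reached 0.08, 0.45, -0.68 and -1.69 in the T-LM P6 samples, far above both P0 values. Its fitted change was 7.56 ± 1.2 (SE) in T-LM (limma adjusted p = 0.000295) and 6.12 ± 1.1 in K-LM (0.000677), where the 3 samples read -1.79, -2.39 and -0.52. In KPT P6 the 5 samples, at -4.89, -3.52, -3.53, -2.73 and -3.52, also lay above P0, but the change of 4.36 ± 1.9 missed the threshold (limma adjusted p = 0.229). The fit shares its spread with P2 to P5, and on the P0 and P6 arrays alone the same change had an SE of 0.46 (limma adjusted p = 0.000118). The Col1a2 change was 7.32 ± 1.3 for T-LM (0.000647) and 6.15 ± 0.89 for K-LM (3.17e-05), with 5.26 ± 1.5 in KPT (0.0523 in limma, 2.62e-05 on the P0 and P6 arrays alone). Col3a1, the single chain of type III collagen, rose by 5.51 ± 1.2 in T-LM (limma adjusted p = 0.00376), from -6.63 and -7.03 at P0 to -1.24, -0.60, -1.46 and -2.53 at P6. It stayed far lower on the other routes, at -4.09 to -5.66 in KPT P6 and -5.37, -5.86 and -4.04 in K-LM P6, with changes of 2.04 ± 1.7 (0.605) and 1.65 ± 0.98 (0.371). Without either P0 replicate the T-LM calls of Col1a2 and Col3a1 were lost, leaving 3 members, Col3a1 was also lost without T-LM P6 replicate 2, and the K-LM call of Col1a1 was lost without P0 replicate 2.

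Type VI collagen moved by its alpha1 and alpha3 chains. Col6a3, the longest of the type VI chains, was at -8.60 and -8.59 and not well above background in P0. At P6 it stood at -2.25, -1.49, -1.19, -1.31 and -1.52 in the KPT samples, at -2.29, -1.82, -1.85 and -2.50 in those of T-LM and at -0.52, -0.86 and -0.88 in those of K-LM, and no P6 sample came near P0. The difference was at least 40.9-fold in KPT (limma adjusted p = 9.8e-08), at least 27.7-fold in T-LM (1.73e-08) and at least 71.1-fold in K-LM (8.66e-09). Here the P0 signal is replaced by the lowest signal that counts as above background on its array, so that the fold is a lower bound. The adjusted p beside this and every later bound is that of the fit on the measured values, without the replacement. Col6a1 rose from means of -8.38 to -3.58 in KPT, at least 10.0-fold (0.00568), to -3.74 in T-LM, at least 8.98-fold (0.000127), and to -4.37 in K-LM, at least 5.80-fold (limma adjusted p = 7.03e-05). The KPT call of Col6a1 was lost without either P0 replicate or without any of KPT P6 replicates 1 to 4, leaving Col6a3 as the 1 member called there, and it was also lost when values were floored at the detection limit of the array. In T-LM the calls of Col6a1 and Col3a1 were lost with this floor. COL6A1 is part of the signatures the study chose on these samples for KPT and K-LM, so its direction is not independent evidence. Col6a2 was not well above background in P0, in KPT P6 or in K-LM P6, and reached -6.31, -6.29, -6.81 and -7.13 in T-LM P6.

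Outside these families, Col8a1 rose in K-LM, from -8.65 and -8.41 at P0, not well above background, to -4.77, -5.08 and -4.83 at P6. That is at least 4.05-fold (limma adjusted p = 0.000217). Col12a1 was called on no route, and its K-LM change of -1.05 ± 0.34 did not pass (limma adjusted p = 0.0512), with -2.71 and -3.38 at P0 and -4.12, -3.61 and -4.66 at P6.

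**Figure D2:**
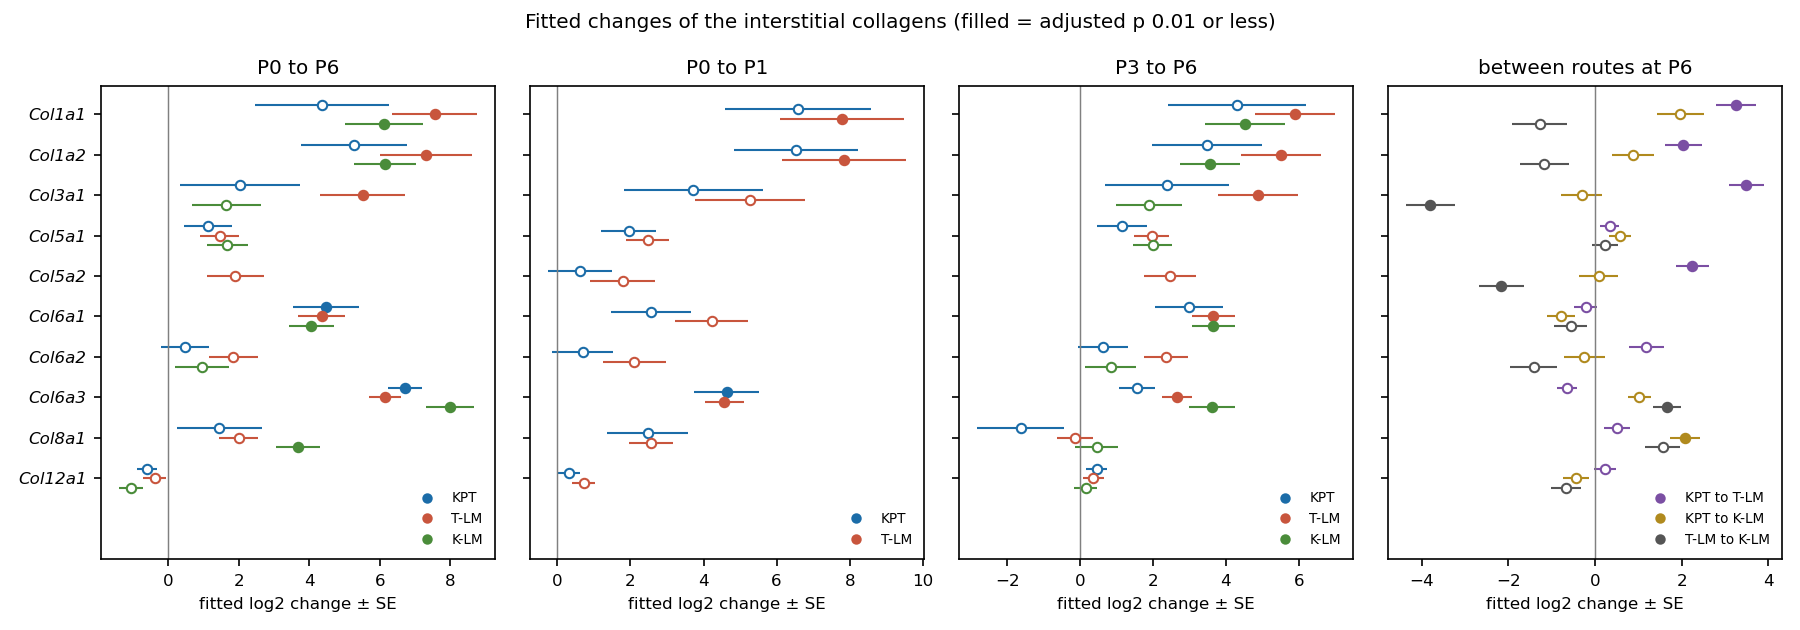
Fitted log2 change of each member with its standard error (horizontal axis) from P0 to P6, P0 to P1 and P3 to P6 in each route, and between routes at P6; filled points have an adjusted p of 0.01 or less, and members not tested have no point. The P0 to P6 points of Col6a3 (fitted at 6.71, 6.14 and 7.99 against a P0 signal at background) are filled on all 3 routes, and those of Col3a1 separate T-LM from the other routes at P6. Between routes at P6, Col5a2 and Col6a2 have a point only because they passed the filter through T-LM P6.

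Much of this rise was already present after 1 passage. From P0 to P1, 3 of 10 members rose in T-LM against 2.29% of all probes, and 1 of 10 in KPT against 3.49%. Col1a1 read 0.46, 1.35, 1.82 and 1.64 in T-LM P1 replicates 2 to 5 but -6.46 in replicate 1, and its change of 7.78 ± 1.7 passed (limma adjusted p = 0.00605). Col1a2 changed by 7.84 ± 1.7 (0.00605), and Col6a3 by at least 9.28-fold (limma adjusted p = 2.91e-05). Replicate 1 is the sample titled LOT1 and is placed in the tail route by its experiment label. Without it 8 members rose, in a smaller fit to which the 2.29% does not apply. They were the 3 above with Col3a1 (6.52), Col5a1 (2.84), Col6a1, Col6a2 and Col8a1, of which the last 3 were not well above background in P0, and the type I changes became 9.34 and 9.35. With replicate 1 the changes of Col3a1, 5.28 ± 1.5 (0.0266), Col5a1, 2.47 ± 0.59 (0.0118), Col6a1, at least 8.20-fold (0.015), and Col8a1, at least 2.17-fold (0.0105), did not pass in limma, and leaving out either P0 replicate or any of T-LM P1 replicates 2 to 5 left Col6a3 as the 1 member called. In KPT P1, Col1a1 was spread more evenly, with -3.23 and -3.52 in replicates 1 and 2, -0.80 in replicate 3 and 1.77 in replicate 4, all above both P0 samples. Its change of 6.58 ± 2.0 (0.0389) and that of Col1a2, 6.53 ± 1.7 (0.0171), missed the threshold, while Col6a3 rose at least 9.73-fold (limma adjusted p = 0.00219). Without KPT P1 replicate 1 Col1a2 passed as well, making 2, and without either P0 replicate none did.

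From P1 to P6 the 1 member that changed was Col12a1, a collagen that coats fibrils, and it fell on both routes. Its mean went from -2.69 ± 0.41 (SD, n = 5) to -3.62 ± 0.31 (n = 5) in KPT, a change of -0.91 ± 0.23 (limma adjusted p = 0.00695), and from -2.28 ± 0.36 (n = 5) to -3.37 ± 0.43 (n = 4) in T-LM, a change of -1.10 ± 0.25 (0.00411). Of all probes, 7.13% fell in KPT and 5.38% in T-LM, so 1 of 10 members is near the background. The call was lost without 8 of the 10 KPT samples in turn (all but P1 replicate 3 and P6 replicate 4) and without T-LM P1 replicates 1 or 2 or P6 replicates 1, 3 or 4. An index of RNA quality moved with it, the mean level of 16 long mRNAs minus that of 76 ribosomal protein mRNAs, which lay between -6.66 and -5.28 in the P1 samples of these routes and between -7.59 and -6.34 at P6. With the index as a covariate the changes were -0.52 and -0.76 and did not pass. Col6a3 went the other way, by 2.07 ± 0.67 in KPT (0.0303) and 1.58 ± 0.43 in T-LM (0.0141), which missed the threshold and passed without P1 replicate 5 of either route.

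From P3 to P6, 5 of 10 members rose in T-LM against 5.77% of all probes and 4 of 9 in K-LM against 4.14%. In T-LM these were Col1a1 by 5.90 ± 1.1 (0.00114), Col1a2 by 5.52 ± 1.1 (0.0029), Col3a1 by 4.88 ± 1.1 (0.00385), Col6a1 by at least 8.05-fold (0.000272) and Col6a3 by 2.66 ± 0.40 (limma adjusted p = 0.000157). In K-LM they were Col1a1 by 4.53 ± 1.1 (0.00652), Col1a2 by 3.56 ± 0.83 (0.00632), Col6a1 by at least 4.78-fold (0.000291) and Col6a3 by 3.62 ± 0.62 (limma adjusted p = 0.000581). Col1a1 shows the spread behind these values, with -8.63, -7.12 and -3.33 in T-LM P3 and -5.22, -7.18, -3.40, -8.24 and -7.45 in K-LM P3, none of which reached the P6 samples of its route. Without T-LM P3 replicate 2 the count was 2 and without T-LM P6 replicate 2 it was 3, and without K-LM P3 replicates 4 or 5 or any 1 of the K-LM P6 samples it was 2 in K-LM. Col3a1 was also lost without T-LM P3 replicate 3 or T-LM P6 replicates 1 or 3, Col1a2 without T-LM P3 replicate 3, and Col1a1 of K-LM without K-LM P3 replicate 2, while Col6a1 and Col6a3 held in each of these cases. Col5a1 just missed the threshold in T-LM (1.96 ± 0.49, limma adjusted p = 0.0116) and K-LM (1.99 ± 0.53, 0.0136), and passed without T-LM P3 replicate 3 or without K-LM P3 replicates 1 or 2. In KPT no member passed, against 0.763% of all probes in either direction. An unadjusted p under 0.05 in limma was reached by 4 of 9 members, each with a positive change, and by 4725 of 20983 probes in either direction. The 4 members were Col1a2 (3.48 ± 1.5, limma adjusted p = 0.193) and Col6a3 (1.57 ± 0.49, 0.0685), and Col1a1 (at least 7.0-fold, 0.193) and Col6a1 (at least 7.29-fold, 0.0671), which were not well above background in KPT P3. On the arrays of KPT P3 and P6 alone, to which the 0.763% does not apply, 6 members passed. They were these 4 and Col3a1, higher, and Col8a1, lower by 1.63. No difference in these changes between routes passed. Of 40 tests (10 members, P3 to P6 between each pair of routes and P1 to P6 between KPT and T-LM) the lowest limma adjusted p was 0.328.

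The RNA index was lower at P3 than at P6 in KPT and K-LM, and the ranges overlapped in T-LM. It lay between -8.34 and -8.14 in KPT P3, -8.96 and -6.80 in T-LM P3 and -9.28 and -7.33 in K-LM P3, against -7.59 to -6.34, -7.35 to -6.65 and -6.60 to -6.49 at P6. Across groups the index was in part like Col1a1 in its course. Its medians in KPT and T-LM were -5.96 and -6.02 at P1, -7.95 and -7.65 at P2, and -6.49 and -7.13 at P4. Other groups differed. In P0, where Col1a1 was among its lowest, the index was -7.04 to -6.37, and it was -8.99 to -8.09 in K-LM P5 and -8.47 to -7.09 in T-LM P5, where the mean of Col1a1 was -2.45 and -0.50. Once the index was a covariate, the changes of Col1a1 (2.68), Col1a2 (2.18) and Col6a3 (2.79) on the K-LM route did not pass, leaving Col6a1, and in T-LM Col1a2 (5.50) did not pass either. The counts that moved with this covariate in other comparisons are given in the closing section. A further part of the index in these results was not tested.

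At P6 the routes differed in which fibril chains were high. Type I and III chains were higher in T-LM than in KPT. Col5a2 and Col6a2 passed the filter on dim probes through T-LM P6 alone, where each was well above background in 3 of 4 samples. Their values are therefore given without a test, and they are left out of the counts. Of the other 8 members 3 were higher, against 7.20% of all probes. The change from KPT to T-LM was 3.25 ± 0.47 for Col1a1 (6.19e-05), 2.04 ± 0.42 for Col1a2 (0.00169) and 3.49 ± 0.41 for Col3a1 (limma adjusted p = 6.6e-06), with no overlap of samples for any of them. Col5a2, which pairs with the type V alpha1 chain, was not well above background in KPT P6. It stood at -6.50, -5.31, -6.81 and -7.54 in T-LM P6, at least 1.52-fold higher, and with dim values floored the difference was 0.55. Col5a1 itself was at -3.31 to -2.46 in KPT, while T-LM ran from -3.02 to -1.93 and K-LM from -2.30 to -2.10. From T-LM to K-LM, 1 of the other 8 members was lower against 7.56% of all probes and 1 higher against 4.18%, neither far from the background. Col3a1 fell by 3.80 ± 0.56 (0.000115) and Col6a3 was higher by 1.66 ± 0.32 (limma adjusted p = 0.00127). Col5a2 was at least 1.87-fold lower in K-LM, where it was not well above background. From KPT to K-LM the 1 member called, against 6.51% of all probes, was Col8a1, higher by 2.07 ± 0.35 (limma adjusted p = 0.000331), with -7.15, -6.80, -7.25, -6.87 and -6.28 in KPT P6. Col1a1 (1.97 ± 0.55, 0.0129) and Col6a3 (1.02 ± 0.27, 0.0101) just missed the threshold, and Col1a1 passed without K-LM P6 replicate 2 or KPT P6 replicate 4, making 2 members, as did Col6a1, lower in K-LM, without K-LM P6 replicate 3. Each group enters a pair of these comparisons. All K-LM P6 arrays lay on a later slide, whose term was estimated from 5 RNA samples hybridised on both array sets, in which no tested member differed at the threshold and fitted differences lay between -0.27 and 0.22. Col5a2 and Col6a2, too dim to be tested there, differed between the array sets by -0.68 and -0.49 on average and by up to 1.46 and 1.51 in 1 sample. With all 70 arrays in 1 model no difference between routes at P6 passed for any member. With slide as a random block instead, the Col8a1 difference from KPT (1.88, and 2.01 within the later slide alone, which passed) and the Col6a3 difference from T-LM (1.30) did not pass.

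At P5 Col6a3 and Col12a1 were higher in T-LM than in KPT, 2 of 9 members against 2.18% of all probes. Col6a3 lay between -1.75 and -0.32 (median -0.72) in the 6 T-LM samples and at -1.83, -2.86, -2.89, -3.08 and -3.93 in KPT, a change of 1.96 ± 0.34 (limma adjusted p = 0.00214). Col12a1 was at -4.23, -4.67, -4.62, -4.17 and -4.61 in KPT and between -4.07 and -2.79 (median -3.32) in T-LM, a change of 1.14 ± 0.19 (0.00205). The groups did not overlap for either gene. From T-LM to K-LM, Col6a3 changed by -1.19 ± 0.36 (0.0438) and Col12a1 by -0.69 ± 0.21 (0.042), so no member of 9 passed, against 3.40% of all probes. An unadjusted p under 0.05 in limma was seen for 2 members and for 5445 of 19738 probes, and Col12a1 passed without T-LM P5 replicate 2. No member of 9 passed from KPT to K-LM either, against 7.36% of all probes. There 1 member had an unadjusted p under 0.05 in limma, beside 6449 of 19738 probes. The fibril chains were uneven within KPT P5. Col1a1 was at 2.80 and 0.72 in replicates 1 and 2 and at -4.07, -4.94 and -4.07 in the others, and without KPT P5 replicate 1 the 1 member that passed from KPT to K-LM was Col8a1.

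Members moved together from sample to sample, beyond what route and passage gave. After each group mean was subtracted, over 62 or 63 samples in 17 groups of 2 or more, the 45 pairs had a median Pearson r of 0.67, 43 were positive and 35 had an adjusted permutation p of 0.05 or less. Col1a1 and Col1a2 were the closest pair, with r = 0.98 and Spearman's rho = 0.97 (permutation p = 1e-05, the smallest that 100000 permutations can give, adjusted 2.5e-05 over the 45 pairs), and r = 0.97 without the 2 samples farthest from the median. The 10 pairs among the type I, III and V chains ran from 0.71 to 0.98, and the 3 pairs of type VI chains from 0.51 to 0.90, the highest for Col6a1 with Col6a2, which both lie on chromosome 10. The 36 pairs without Col12a1 were all positive, from 0.31 to 0.98, and 35 passed, the exception being Col6a1 with Col8a1 (adjusted permutation p = 0.145). The 9 pairs with Col12a1 lay between -0.02 and 0.18 and none passed. Within routes the median over the 45 pairs was 0.76 for KPT, 0.70 for T-LM and 0.58 for K-LM. The probes of 1 array share its scaling and its RNA, and with the percentile taken over all probes the median was 0.63. Pairs of other genes were not tested in this way, so no share over all genes stands beside these counts. Col5a2 and Col6a2 were well above background in only 12 and 17 of 65 samples, so their pairs rest mostly on background values.

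**Figure D3:**
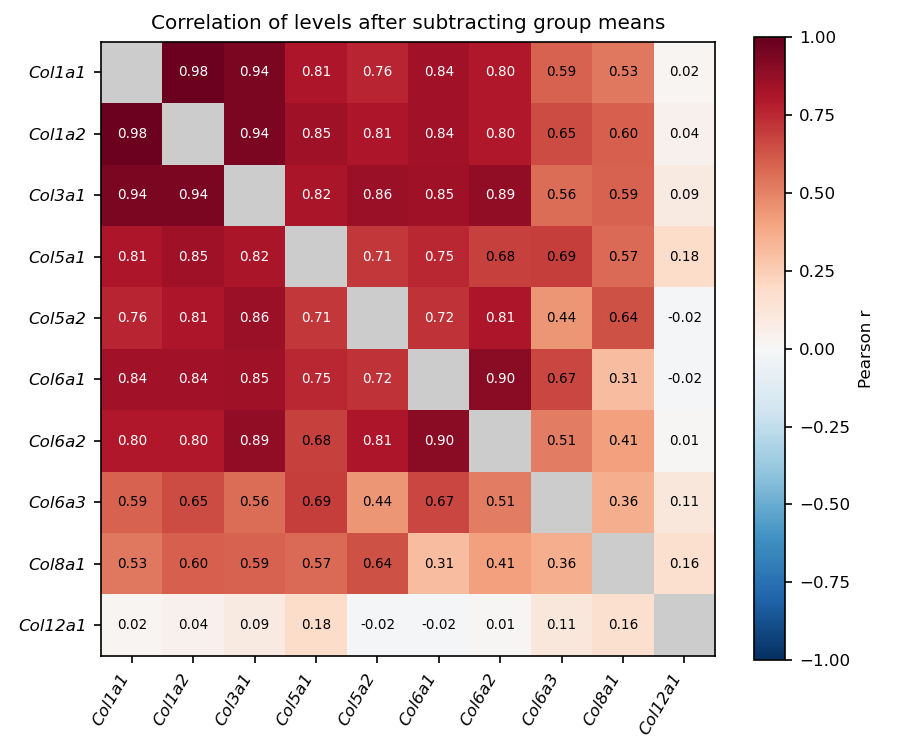
Pearson r between each pair of members over RNA samples after the mean of each route and passage was subtracted (colour and number in each cell, gene names on both axes). The fibril chains and the type VI chains form 1 block with r of 0.44 and more. Col8a1 has 0.53 to 0.64 with the fibril chains and 0.31 to 0.41 with the type VI chains, and the Col12a1 row lies near 0.

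A simpler count took, in each sample, how many of the 10 members stood above their own median over all samples. Group means were not subtracted, so it takes in the differences between routes and passages. At least 8 members stood above their median in 24 of 65 samples and at most 2 in 27, and all 10 or none in 14. Other genes were not counted in this way, so no share over all genes stands beside these counts. The medians of Col5a2 and Col6a2 were at background, so for them the count rests mostly on background values. The count was 0 to 2 in every P2 and P3 sample of the 3 routes and 1 in both P0 samples, 7 to 10 in T-LM P6, 2 to 8 in KPT P6 and 4 to 8 in K-LM P6. It ran from 1 to 10 in KPT P1, from 1 to 9 in T-LM P1 and from 0 to 9 in KPT P5, so these groups held samples of both kinds.

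**Figure D4:**
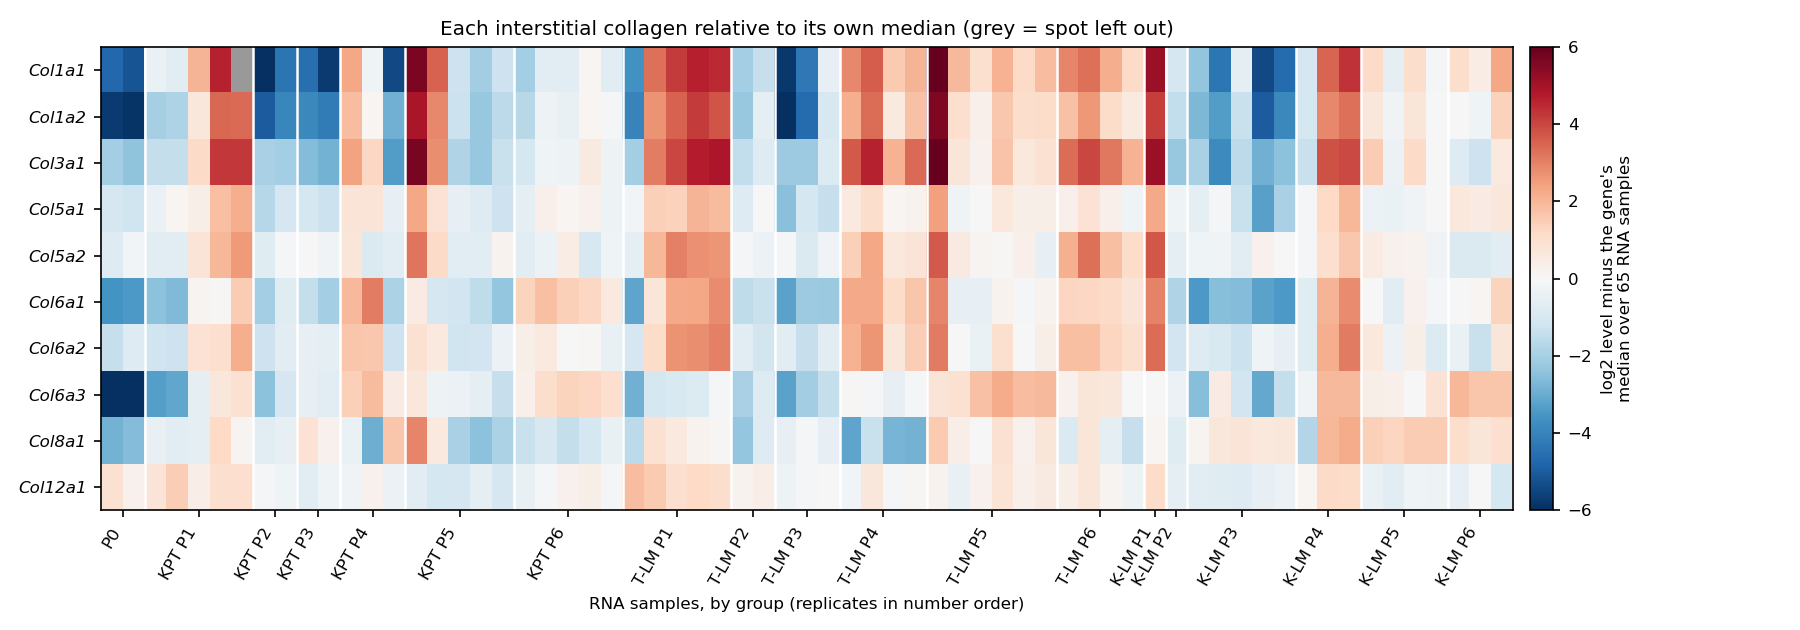
Level of each member (rows) minus its own median over the RNA samples (colour, log2, drawn up to 6 in either direction) in each RNA sample (columns, by group, separated by white lines); the grey cell is the Col1a1 spot left out. Columns are red or blue over most rows at once, as in KPT P5 replicates 1 and 2 and T-LM P1 replicate 1, while the Col12a1 row is pale.

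Genes outside the list ran close to the members across all 65 samples, passage and route included. The 3 most like Col1a1 (64 samples) were Col1a2 (r = 0.978), Fkbp10 (0.971), a chaperone of procollagen, and Fn1 (0.971), which encodes fibronectin. Col3a1 ran closest to Prkd3 (0.949), Fbn1 (0.946) and Wtip (0.946), and Col5a1 to the cross-linking enzymes Loxl3 (0.915) and Loxl1 (0.910). Col1a2 had Lamb1 (0.971) and Fkbp10 (0.963) after Col1a1. The type VI chains were less alike, with Serping1 (0.857) nearest to Col6a1, Col3a1 (0.912) to Col6a2 and Arap3 (0.850) to Col6a3. Col8a1 had no gene above 0.766 (Crct1), and for Col12a1 the nearest was Jarid2 (0.816), followed by Col16a1 (0.774). These values describe the samples and carry no test.

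Some of the genes that fold and process procollagen rose on the lung routes as well. Over all probes, 5.89% rose from P0 to P6 in T-LM, 4.12% in K-LM and 3.32% in KPT, and the counts of the lists that follow stand beside these shares. Of the 28 genes listed for folding, secretion and processing of procollagen, 4 of 27 tested rose from P0 to P6 in T-LM, 3 of 26 in K-LM and none of 27 in KPT, and none fell, with median changes of 0.46, 0.65 and 0.33. In KPT 5 of the 27 had an unadjusted p under 0.05 in limma, 3 of them higher, beside 3825 of 20983 probes in either direction. Fkbp10 rose at least 49.5-fold in T-LM (limma adjusted p = 0.00018) and at least 15.1-fold in K-LM (0.000274), and Adamts2, which removes the amino-terminal propeptide, at least 21.3-fold (0.000646) and 23.6-fold (limma adjusted p = 0.000178). FKBP10 is also in the study's KPT signature. Between KPT and T-LM at P6, 9 of the 27 were higher, against 7.20% of all probes, and 1 lower.

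Of 16 partners of the fibril, 4 of 14 tested rose and 1 fell in T-LM, the same counts held in K-LM, and 1 rose in KPT, with medians of 2.05, 1.23 and 0.26. Fn1 rose at least 130-fold in T-LM (limma adjusted p = 6.41e-05) and 55.9-fold in K-LM (9.45e-06), and Dcn, the small proteoglycan decorin, by 7.36 ± 0.67, 6.29 ± 0.78 and 5.29 ± 0.44 in T-LM, K-LM and KPT (2.23e-07, 3.71e-06 and 5.09e-07). Ogn, a related proteoglycan, fell in K-LM by at least 7.45-fold (limma adjusted p = 1.59e-08). The other collagen chains, of which 23 were listed, gave 3 of 9 higher in T-LM, 2 of 7 in K-LM and 1 of 7 in KPT. Col7a1, the anchoring fibril chain of skin, rose on all 3 routes, by 2.44 ± 0.35 in T-LM (7.67e-05), 1.74 ± 0.34 in K-LM (0.001) and 1.76 ± 0.28 in KPT (limma adjusted p = 0.000584), and Col4a1 of basement membranes rose at least 13.8-fold in T-LM (0.000601) and 4.91-fold in K-LM (limma adjusted p = 0.00131). Of 10 collagen receptors listed, KPT had no call among 7 tested and T-LM none among 6. At an unadjusted p under 0.05 in limma there were 0 and 2, beside 3825 of 20983 and 4901 of 21384 probes. K-LM had 1 call among 6, the integrin chain Itga11, at least 5.90-fold higher (limma adjusted p = 0.00796).

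Of 18 genes of the TGF-beta pathway and regulators of collagen genes, 6 of 17 tested rose from P0 to P6 in T-LM, 4 rose and 1 fell in K-LM, and 1 rose in KPT, with medians of 1.21, 0.52 and 0.38. Ccn2, a TGF-beta target, rose by 6.63 ± 0.99 in T-LM (limma adjusted p = 0.000112) and 4.30 ± 0.98 in K-LM (0.00459). Ltbp2, a matrix protein of the latent TGF-beta binding family, rose at least 35.7-fold (5.54e-06) and 27.8-fold (1.55e-05), and the receptor Tgfbr2 at least 11.5-fold (9.97e-05) and 5.12-fold (limma adjusted p = 7.69e-05). Tgfb2 itself fell in K-LM by 1.40 ± 0.29 (0.00153). In KPT the 1 gene called of 17, near the share of all probes, was Ccn1 (2.13 ± 0.44, limma adjusted p = 0.00512).

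Summed markers of fibroblasts and of smooth muscle and pericytes were higher at P6 than at P0, while those of endothelium overlapped P0. The sum for fibroblasts overlapped between P3 and P6 on each route. The summed scaled intensity of 11 fibroblast markers was 2.20 to 2.69 in P0, 4.49 to 5.25 in KPT P6, 5.62 to 6.96 in T-LM P6 and 5.58 to 6.72 in K-LM P6. At P3, where the type I chains were low, it was 4.78 to 5.56 in KPT, 3.83 to 6.35 in T-LM and 3.97 to 6.26 in K-LM, which overlaps P6 on each route, and K-LM P5 had 9.19 to 11.2. From P0 to P6, KPT had 2 of 8 tested that rose, T-LM 5 of 9 and K-LM 4 of 9. Dcn, one of them, and Cd34 were well above background in 64 of 65 samples, Pdpn and Twist2 in 65, Pdgfrb in 48 and Thy1 in 46. Fap was so in 21, Pdgfra and Lum in 19, Tcf21 in 3 and Dpt in none. The sum adds intensities, so the brightest markers weigh most in it. Thy1 alone of this list was among the 10 symbols most like Col1a1 (r = 0.959, 64 samples). The sum over 7 smooth muscle and pericyte markers ran from 0.0894 to 0.0952 in P0, from 1.00 to 1.60 in KPT P6, from 4.06 to 14.7 in T-LM P6 and from 0.549 to 2.53 in K-LM P6. At P3 it was 0.153 to 0.243 in KPT, 0.147 to 1.48 in T-LM and 0.268 to 2.13 in K-LM, below P6 in KPT and T-LM and overlapping it in K-LM. It was 38.2 and 19.0 in KPT P5 replicates 1 and 2 against 0.637 to 0.929 in the other 3, 39.6 in T-LM P5 replicate 1 and 0.238 in T-LM P1 replicate 1, the samples in which the fibril chains were highest and lowest for their groups. Of this list Acta2 was well above background in 63 samples and Tagln in 65, and the mural markers Myh11 in 4 and Rgs5 in 3. Macrophage and leukocyte markers (11) summed to 2.23 to 2.57 in P0, 3.09 to 4.28 in KPT P6, 3.26 to 3.75 in T-LM P6 and 2.51 to 3.64 in K-LM P6, and to 7.30 and 9.86 in KPT P5 replicates 1 and 2 against 3.70 to 4.08 in the other 3. The K-LM P6 range overlaps P0. Aif1, Cd14, Cd68, Csf1r and Itgam were well above background in all 65 samples, P0 included, and Lyz2 in 63. Fcer1g was so in 38, Tyrobp in 36, Adgre1 in 18, Laptm5 in 16 and Ptprc in 14. Lung epithelial markers (7) summed to 0.0234 to 0.0236 in P0, 0.0310 to 0.0390 in KPT P6, 0.147 to 0.661 in T-LM P6 and 0.0606 to 0.0913 in K-LM P6. Scgb1a1 was well above background in 44 samples and the others of this list in 7 or fewer. Endothelial markers (8) summed to 0.41 to 0.455 in P0 and 0.279 to 0.466 in KPT P6. They gave 0.444 to 0.606 in T-LM P6 and 0.407 to 0.451 in K-LM P6, overlapping P0 on each route. Mesothelial markers (4) summed to 0.0739 to 0.0853 in P0 and 0.62 to 0.713 in KPT P6. They gave 1.53 to 1.98 in T-LM P6 and 0.585 to 0.831 in K-LM P6. Krt8, Krt18 and Pax8 of renal epithelium were well above background in all 65 samples, Epcam in 5 and Cdh1 in 7. The part of these cell types in the collagen levels was not tested.

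**Figure D5:**
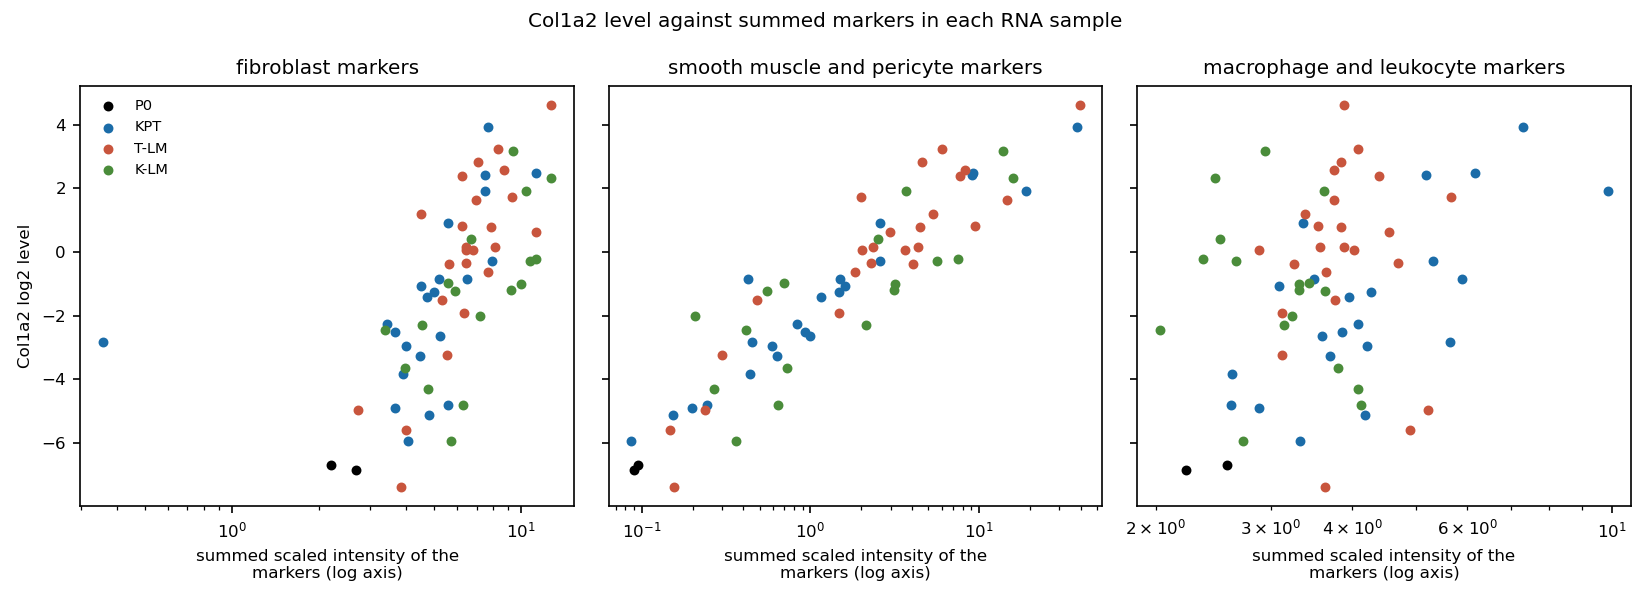
Level of Col1a2 (log2, vertical axis) in each RNA sample against the summed scaled intensity of fibroblast, smooth muscle and pericyte, and macrophage and leukocyte markers (horizontal log axes); colours give P0 and the 3 routes. Col1a2 is highest in the samples with the largest sums of smooth muscle and pericyte markers, 39.6 and 38.2.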

How the data were processed

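Total RNA was labelled with Cy5 and hybridised to one-colour mouse arrays of 62976 spots. Per the file headers the scans were read with Agilent Feature Extraction 11.0.1.1 (62 arrays) or 12.0.2.2 (8 arrays on a later slide), and the deposited processed intensity is background-subtracted. The authors' series values are log2; they match quantile-normalized log2 raw median signals to within 0.105 and were used as an alternative. The 10 members and the gene lists were chosen with earlier results of these data known.

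Outlier-flagged and control spots were left out, the spots of each of 55681 probes were averaged, and levels were scaled as log2 minus the 75th percentile. Of these probes 28026 had a gene symbol, and a gene was read from its brightest probe. A probe entered a fit if 2 or more of its arrays were well above background, and was tested with limma 3.58.1 in R 4.3.3, 2-sided, with Benjamini-Hochberg adjustment over all tested probes and a threshold of 0.01. KPT and T-LM were fitted per route with P0 and P2 to P6, and P1 was added for its own comparisons. K-LM and P6 fits took in the repeat arrays, with the later slide as a term and RNA sample as random block (statmod 1.5.0), and the K-LM fit also KPT P6. P5 routes were fitted together. Fitted changes can thus differ slightly from differences of the levels printed, in which the arrays of 1 RNA are averaged. Correlations were tested by permutation within groups (scipy 1.17.1). Genes named were all members, up to 3 called genes per list and comparison, and for likeness the 3 symbols with the highest r. Fits were tested on simulated data. The number of arrays limits the precision.

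Alternatives were other scalings, normexp with an offset of 50 and quantile normalization, the deposited values, other filters, a floor, other samples and slide terms, a replicate block, each replicate left out in turn, and, added after the data were seen, an index of RNA quality as a covariate. Normexp was run on the median signal. Sequences come from RefSeq (GRCm38.p6).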

Additional observations from a re-analysis of the deposited data

Results flagged for a closer look

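In 9 groups of 4 to 6 samples, 90 combinations of member and group were searched for a sample that stood far from the rest of its group, and 11 were found, in 3 samples; about 1 in 20 such groups is marked by chance, and members that move together are marked together. T-LM P1 replicate 1, titled LOT1, was low in Col1a1 (-6.46 against 0.46 to 1.82 in the others), Col1a2 (-4.98 against 1.74 to 3.23), Col3a1 (-6.65 against -1.54 to 0.24) and Col5a2 (-9.18 against -6.61 to -5.62). T-LM P5 replicate 1 was high in Col1a1 (3.17 against -1.87 to -0.76), Col1a2 (4.62 against -0.64 to 0.64), Col3a1 (1.88 against -4.37 to -2.90), Col5a1 (-0.31 against -3.05 to -2.14), Col5a2 (-4.96 against -9.11 to -8.08) and Col6a1 (-1.91 against -5.33 to -4.64). K-LM P3 replicate 1 was low in Col8a1 (-5.67 against -5.20 to -5.05). Summed smooth muscle and pericyte markers were 0.238 in T-LM P1 replicate 1 against 2.00 to 8.30 in the others, and 39.6 in T-LM P5 replicate 1 against 1.85 to 3.62; their part in these values was not tested.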

How the results depend on the processing

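No single change of a member that was recomputed changed sign under any alternative. Not every change printed was among them, for example that of Col8a1 from P3 to P6 in KPT. Of the single changes recomputed, 541 kept their side of the threshold under settings other than leaving out a sample, 37 came to pass it and 60 no longer passed; for left-out samples these numbers were 379, 14 and 64. Counts of members called moved as follows, and the cause was not tested unless given. With the arrays of the compared groups alone, P0 to P6 in KPT gave 5 and P3 to P6 in KPT 6. On the later slide alone P0 to P6 in KPT gave 5. With all arrays in 1 model the counts were 2 for P0 to P6 and P3 to P6 in K-LM and for P0 to P1 and P1 to P6 in KPT, 1 from KPT to T-LM at P5, and 0 for each pair of routes at P6. With slide as a random block they were 3 for P0 to P6 in K-LM, 2 for P0 to P1 in KPT, P1 to P6 in T-LM and P3 to P6 in K-LM, and 0 from KPT to K-LM at P6. Without the slide term and repeat arrays P3 to P6 in K-LM gave 2.

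A filter on all arrays of a fit left 0 members called from P0 to P6 on each route, from P0 to P1 in KPT, from P3 to P6 in T-LM and K-LM and for each pair of routes at P6, and 1 from P0 to P1 in T-LM, because few members were then tested. With no filter the counts were 0 for P1 to P6 in KPT and T-LM, 1 for P0 to P1 in T-LM and 2 for P3 to P6 in K-LM. A floor on dim values gave 1 for P0 to P6 in KPT, 3 in T-LM, 0 for P0 to P1 in KPT, 1 in T-LM and 2 from KPT to K-LM at P6. The percentile over all probes gave 0 for P1 to P6 in KPT and 3 from KPT to K-LM at P6. Deposited values gave 2 for P1 to P6 in T-LM and 2 from KPT to K-LM at P6, and normexp with quantile normalization 2, 2 and, from T-LM to K-LM at P6, 5. The RNA index as a covariate, chosen after seeing the data, gave 1 for P0 to P6 in KPT, 0 and 5 for P0 to P1 in KPT and T-LM, 0 for P1 to P6 in KPT and T-LM, 1 for P3 to P6 in K-LM and 3 from KPT to K-LM at P6.

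With 1 sample left out in turn, counts ran from 1 to 2, 3 to 5 and 4 to 5 for P0 to P6 in KPT, T-LM and K-LM, from 0 to 2 and 1 to 8 for P0 to P1 in KPT and T-LM, from 0 to 1 and 0 to 2 for P1 to P6, and stayed at 0, or ran from 2 to 5 and 2 to 5, for P3 to P6 in KPT, T-LM and K-LM. They were 2 to 3, 0 to 1 and 0 to 1 between KPT and T-LM, KPT and K-LM, and T-LM and K-LM at P5, and 4 to 5, 1 to 2 and 2 to 3 at P6, where all counts given here take in Col5a2 and Col6a2. Samples with the same replicate number did not steadily deviate together, with correlations from -0.35 to 0.71. In no comparison of 3 or more shared numbers were all above 0.1, while P0 to P1 in T-LM had 0.22 and 0.3 for 2 shared numbers. With 2 to 5 shared numbers this cannot show whether such samples share an origin. With the replicate block the counts were 0 for P0 to P1 in KPT, 1 for P0 to P1 in T-LM, 0 for P1 to P6 in KPT and 2 for P3 to P6 in K-LM, P1 to P6 in T-LM called Col6a3 (1.78) in place of Col12a1, and the other counts stayed within 1.5 times. Averaging the probes of a gene gave no other value, since each member has 1 probe. Signal close to background limits Col5a2 and Col6a2 most.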
